A study of Mus musculus with 8 samples.

Results

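Nucleosides, nucleobases and water-soluble vitamins were followed through 17 neutral formulas in faecal extracts of mice. A row of the deposited mass table belonged to the set when its mass lay within 3 ppm of a formula, and 13 of the 2429 masses did. They matched 8 of the 17 formulas, and each of the 8 is the formula of a nucleoside. No mass matched either nucleobase or any of the 4 vitamins, so the set is called the nucleoside masses below. Age-matched female C57BL/6 mice, an inbred laboratory strain, gave 4 untreated samples, and 4 more samples came from mice gavaged with 20 mg of streptomycin 24 h before. Streptomycin is an aminoglycoside antibiotic that acts on the bacterial ribosome. The comparison asks how the intestinal metabolome responds to the antibiotic, here for the building blocks of nucleic acids. Untreated faeces were collected before the dose, so effects of the drug and of the collection time cannot be told apart. Whether the 4 samples of a group are 4 mice is not stated in the labels, and p-values may then reflect technical spread alone.

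A nucleoside is a base joined to a sugar, ribose in the building blocks of RNA and deoxyribose in those of DNA. In the gut, RNA and DNA from food, shed epithelium and microbes are cut to nucleotides and then, by phosphatases, to nucleosides. Epithelial and bacterial transporters take nucleosides up, deaminases turn adenosine into inosine and cytidine into uridine, and phosphorylases and hydrolases split the base from the sugar for salvage or breakdown. Gut bacteria also both make and use B vitamins, among them thiamine, riboflavin, pantothenate and biotin.

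The instrument was a Fourier-transform ion cyclotron resonance spectrometer fed by direct infusion, which measures mass precisely and cannot tell isomers apart. A name below therefore stands for a mass at that formula: adenosine shares its formula with deoxyguanosine, and uridine shares its formula with pseudouridine. Values are relative intensities on a linear scale, and the value of a sample is the mean of its 2 acquisitions. Untreated samples listed 1210 to 1270 masses with summed intensities of 19761 to 20140, and streptomycin samples listed 1633 to 1768 masses with sums of 21600 to 23221. The 2 masses of the calibrant added to every extract were higher in streptomycin samples by ratios of 1.31 and 1.37 (exact two-sided permutation p = 0.0286 for each, the smallest that 4 against 4 samples allow). Scaling each sample to the calibrants changed the mean levels of the nucleoside masses in streptomycin samples by factors of 0.867 to 0.895. The scaling was centred on the mean of all samples, so these factors understate the shift between groups, which the calibrant ratios give. Limma then still called all 13 higher, a call that scaling could hardly change with untreated values at 0. In either group a mass is listed in 0 or in 6 to 8 of the 8 acquisitions and never in 1 to 5, so a group at 0 did not reach that level of listing. No fold is given against such a group. The number of ions behind an intensity is unknown.

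After streptomycin all 13 nucleoside masses were listed, and in every acquisition of the 4 untreated samples they stood at 0. They covered adenosine or deoxyguanosine, guanosine, inosine, cytidine, uridine or pseudouridine, deoxyinosine, deoxycytidine and thymidine. Their means in streptomycin samples ran from 0.858 to 10.2, with a median of 2.84. Of all 2429 masses, 47.3% were listed in streptomycin samples only, and the share was 43.8% of the 329 masses between 227 and 284 Da, the mass range of the nucleosides. Among the 1783 masses listed in streptomycin samples at all, 64.5% were listed there only. Masses listed in untreated samples only made up 26.6% of the table, and no nucleoside mass was among them. For each of the 13 masses every streptomycin sample stood above every untreated sample (exact two-sided permutation p = 0.0286 each, the smallest the design allows), as was the case for 43.2% of all masses. A mass at 0 in untreated samples and listed in all 4 streptomycin samples can give no other p. The test thus adds nothing to the listing itself.

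**Figure D1:**
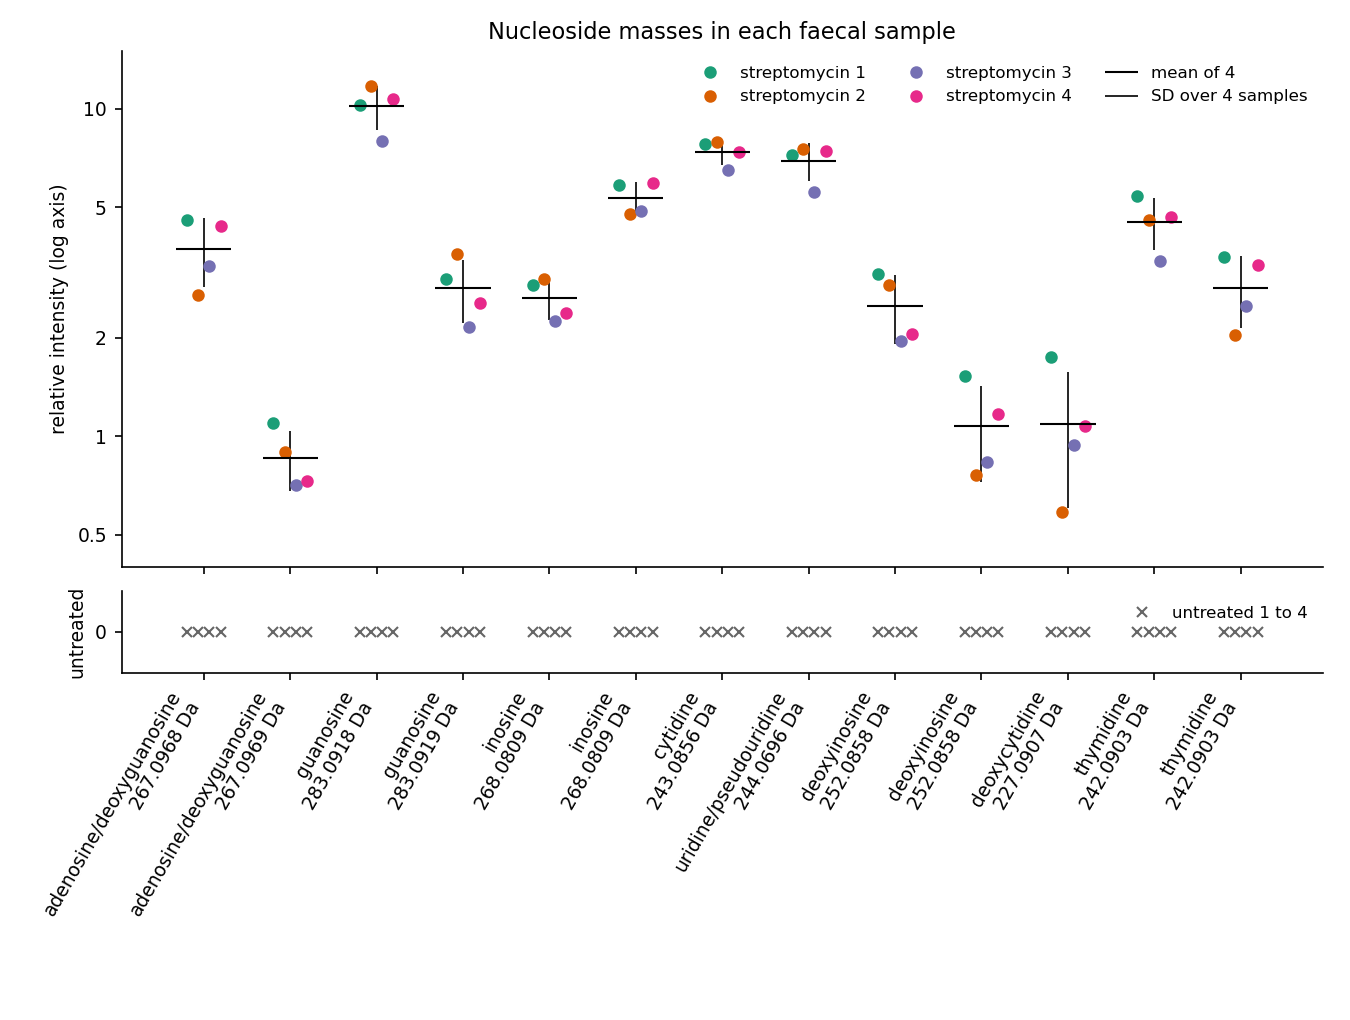
Relative intensity of the 13 nucleoside masses in each sample, with the streptomycin samples on a log axis above and the untreated samples on a separate strip at 0 below. Points are samples, horizontal bars are means and vertical lines are SDs over 4 streptomycin samples; means run from 0.858 to 10.2 while all untreated points are at 0.

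Limma, which was fitted over all 2429 masses with 0 set to the lowest sample value of the table, 0.0738, called all 13 higher (Benjamini-Hochberg adjusted p from 4.75e-10 to 6.37e-06) and 0 lower. By the same adjusted threshold 52.7% of all masses were called higher and 36.7% lower. At an unadjusted p under 0.05 the nucleoside masses called lower were also 0. No lower call was possible in this fit, as the value put in for untreated samples was the lowest of the table. These p-values depend on the value put in for 0. When 0 was set to the lowest listed intensity of the same mass, limma called none of the 13 (adjusted p from 0.0719 to 0.195). Under that setting 4.24% of all masses were called higher after adjustment. At an unadjusted p under 0.05 it was 7 of the 13, and the share of all masses at that threshold was not computed, so 7 of 13 is not to be set against 4.24%. This setting puts untreated values at or below every streptomycin value, so none of the 13 could come out lower.

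Among purine ribonucleosides, 3 of 4 formulas were matched by 6 masses. Guanosine gave the most intense nucleoside mass, 283.0918 Da, at 10.2, 11.7, 7.99 and 10.7 in streptomycin samples 1 to 4 (mean 10.2 ± 1.57, SD, n = 4). A second guanosine row, at 283.0919 Da, stood at 3.01, 3.61, 2.16 and 2.56. Both guanosine rows were highest in sample 2 and lowest in sample 3. Adenosine or deoxyguanosine, at 267.0968 Da, stood at 4.59, 2.69, 3.31 and 4.37 (mean 3.74 ± 0.894, SD, n = 4). Its second row, at 267.0969 Da, was the weakest of the 13, at 1.10, 0.896, 0.711 and 0.729. Inosine, the product of adenosine deaminase, had a pair of rows at 268.0809 Da, and the stronger one stood at 5.83, 4.77, 4.87 and 5.91 (mean 5.35 ± 0.608, SD, n = 4). The weaker inosine row stood at 2.90, 3.02, 2.25 and 2.38. Sample 1 was above the row mean in all 6 purine rows and sample 3 below it in all 6. Xanthosine, the deaminated form of guanosine, had no mass within 10 ppm.

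Both pyrimidine ribonucleosides were matched, by 1 mass each. Cytidine, at 243.0856 Da, stood at 7.80, 7.93, 6.49 and 7.38 (mean 7.40 ± 0.652, SD, n = 4) and varied least of the 13 masses, with a coefficient of variation of 8.82%. Uridine or pseudouridine, at 244.0696 Da, stood at 7.21, 7.52, 5.58 and 7.41 (mean 6.93 ± 0.911, SD, n = 4). In uridine the third sample lay apart from the other three, which spanned 7.21 to 7.52. Pseudouridine, a modified base of transfer and ribosomal RNA, is not salvaged by mammals, but the 2 isomers share this mass.

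Of 5 deoxyribonucleoside formulas 3 were matched, by 5 masses. Thymidine, the nucleoside particular to DNA, had a pair of rows at 242.0903 Da. The stronger stood at 5.40, 4.57, 3.42 and 4.67 (mean 4.51 ± 0.817, SD, n = 4) and the weaker at 3.51, 2.03, 2.50 and 3.33. Sample 1 was the highest in both thymidine rows. Deoxyinosine, which adenosine deaminase makes from deoxyadenosine, had a pair of rows at 252.0858 Da, at 3.13, 2.90, 1.95 and 2.05 and at 1.53, 0.764, 0.836 and 1.17. Deoxycytidine, at 227.0907 Da, stood at 1.75, 0.588, 0.943 and 1.08, and the low value of sample 2 includes an acquisition at 0 beside one at 1.18. It was the only one of the 13 masses not listed in all 8 streptomycin acquisitions. Deoxyuridine had no mass within 10 ppm. The mass nearest to deoxyadenosine, 251.1007 Da, lay -4.54 ppm from the formula, outside the tolerance, and stood at 0.452, 0.127, 0.231 and 0.527, again with 0 in untreated samples. The mass farthest inside the tolerance was guanosine's second row, at 0.818 ppm, so no nucleoside match lay between 0.818 and 3 ppm.

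The formula matches were close. Errors of the 13 masses ran from -0.218 to 0.818 ppm. Among formulas of carbon, hydrogen, nitrogen, oxygen and at most 1 phosphorus and 1 sulfur, 1 alone lay within 1 ppm of each of the 8 nucleoside formulas, and 1 or 2 lay within 3 ppm. No row stood at the spacing of sodium for hydrogen, potassium for hydrogen or hydrogen chloride from any of the 8 matched formulas, in either group. No untreated row therefore offered another of these ion forms of the nucleosides. The only such row of the 17 formulas lay 2.26 ppm from riboflavin with potassium for hydrogen, at 414.0951 Da, and was listed in 3 streptomycin samples.

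Carbon-13 rows gave a further view of 1 formula. At 269.0843 Da, the spacing of carbon-13 above inosine, a row stood at 0.295 ± 0.111 (SD, n = 4), which was 11.3 ± 4.42% of the weaker inosine row and 5.55 ± 2.14% of the stronger. Natural carbon-13 would give 10.8% for 10 carbons. The remaining 11 nucleoside masses had no carbon-13 row. Natural carbon-13 would put that of guanosine at 283.0918 Da at 1.10, of cytidine at 0.720 and of uridine or pseudouridine at 0.675. All 3 levels are above the 0.295 of the row listed for inosine. Among 1185 masses of like intensity in streptomycin samples 3.54% had a carbon-13 row, so the table lists few of them.

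Relative to the rest of the table the nucleosides ranged from low to high intensity. Guanosine at 283.0918 Da stood above 87.0% of the 1783 masses listed in streptomycin samples, cytidine above 83.3%, deoxycytidine above 28.8%, the weaker deoxyinosine row above 28.4% and the weaker adenosine row above 20.6%. Of the 1279 masses listed in untreated samples, 20.1% had an untreated mean below 0.858, the lowest nucleoside mean. In untreated samples, masses between 227 and 284 Da were listed down to group means of 0.164. The 13 masses together made up 0.193% to 0.250% of the summed intensity of a streptomycin sample, with formulas on a pair of rows counted once per row. The most intense mass of the streptomycin samples stood at 1130.

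**Figure D2:**
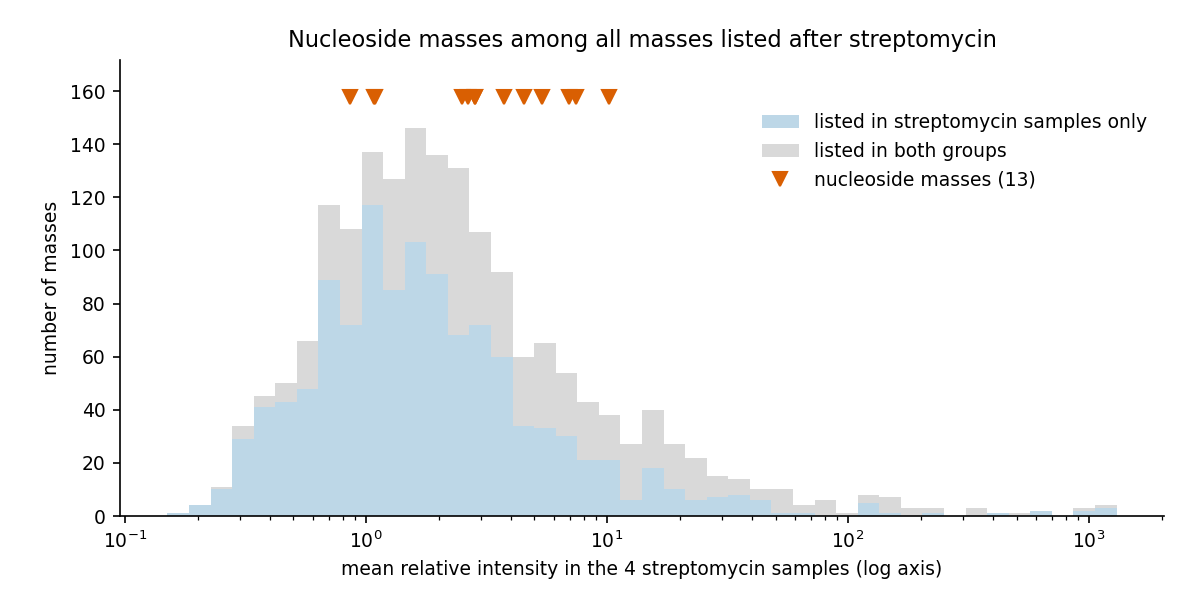
Number of masses by mean relative intensity in the 4 streptomycin samples (log axis), with masses listed in streptomycin samples only in blue and those of both groups stacked in grey. The triangles mark the 13 nucleoside masses, between 0.858 and 10.2.

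How often a nucleoside stood on a pair of rows was also counted. The rule takes every row within 3 ppm, so both rows of a pair enter the set and each pair counts as 2 masses. Of the 13 masses 10 had another row within 1 ppm, or 76.9%, against 16.2% of all masses listed in streptomycin samples. By formula it was 5 of 8: adenosine or deoxyguanosine, guanosine, inosine, deoxyinosine and thymidine each had a pair. Cytidine, uridine or pseudouridine and deoxycytidine had 1 row each. Each sample was measured in positive and in negative ion mode, and the table does not say which mode a row came from. The stronger row exceeded the weaker by a mean ratio of 4.46 ± 1.23 for adenosine or deoxyguanosine, 3.63 ± 0.411 for guanosine, 2.06 ± 0.376 for inosine, 2.48 ± 0.908 for deoxyinosine and 1.64 ± 0.413 for thymidine (SD, n = 4).

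The rows of a pair did not order the streptomycin samples alike. The ratio of stronger to weaker row ran from 3.01 to 5.99 over the samples for adenosine or deoxyguanosine and from 1.75 to 3.80 for deoxyinosine. Sample 2 stood at 1.16 times the row mean in the stronger deoxyinosine row and at 0.711 times in the weaker. For thymidine it stood at 1.01 and 0.715 times the row means. Sample 4 moved the other way: in 5 of 5 pairs the row that was higher in sample 2 was the lower in sample 4. Relative levels have the same mean in every row. The row higher in sample 2 must thus be lower on average in the other samples, so this count is partly built in. In each pair that row also had equal or nearly equal acquisitions in sample 1, such as 1.0951 and 1.0951 for adenosine or deoxyguanosine. Acquisitions of the other row differed more, at 4.3136 and 4.8655 there. Rows of a pair thus also differed in how the measurement was listed, and what lies behind this was not tested. The lowest sample was the same in both rows for 1 of the 5 formulas, guanosine, and the highest sample for 4 of 5. This pattern was noticed after the values were seen and was not tested. The order of single streptomycin samples for a nucleoside thus depended on the row. In each pair neither row was listed in untreated samples, so the size of the difference from them cannot be compared between rows.

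**Figure D3:**
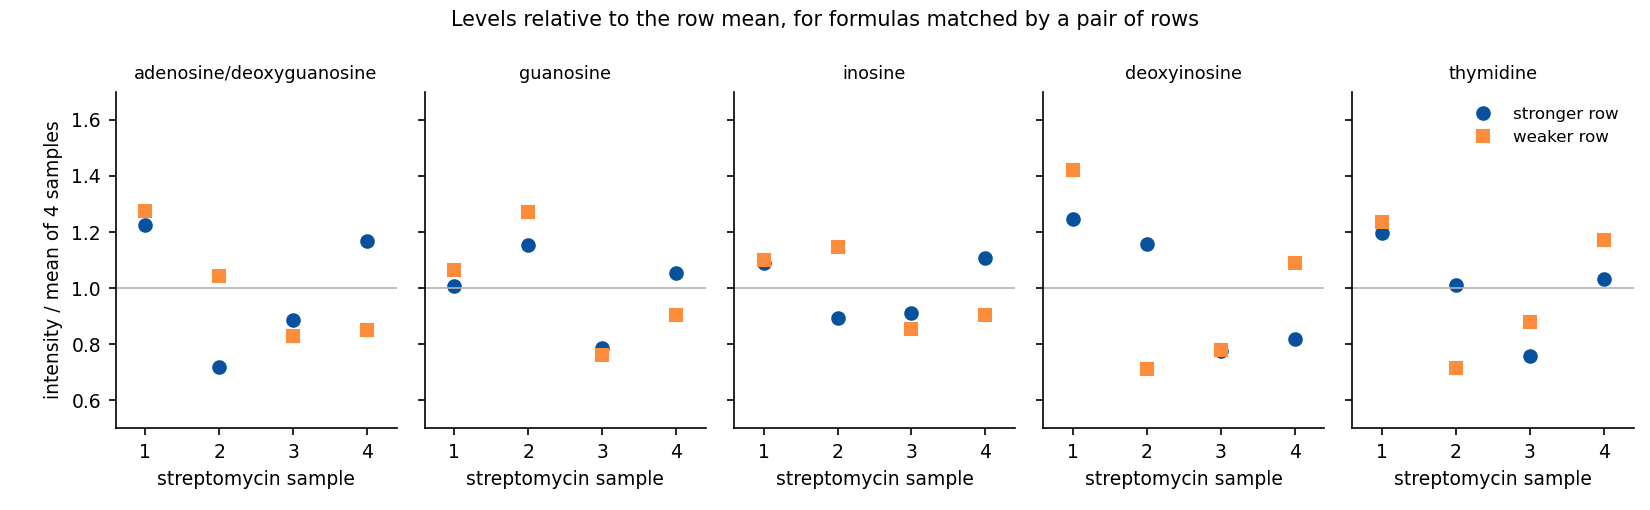
Intensity in each streptomycin sample divided by the mean of the 4 samples, for the 5 formulas matched by a pair of rows; circles are the stronger row and squares the weaker. In sample 2 the deoxyinosine rows lie at 1.16 and 0.711 and the thymidine rows at 1.01 and 0.715, while sample 3 is below 1 in every row.

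Across the streptomycin samples, sample 1 was the highest in 7 of the 13 nucleoside masses and sample 2 in 5, and sample 3 was the lowest in 8 and sample 2 in 5. After scaling to the calibrants sample 1 was the highest in 11, and sample 2 was the lowest in 6 and sample 3 in 5. As deposited, samples 1 and 3 kept to 1 side of the row means. Sample 1 stood above the row mean in 13 of 13 masses and sample 3 below it in 13 of 13, with medians of 1.20 and 0.829 times the mean. Over the 1215 masses listed in all 8 streptomycin acquisitions, 40.4% had sample 1 above and sample 3 below their mean. The 13 masses share extracts and spectra, and pairs of rows share a formula, so they are not independent. The summed nucleoside intensity was 58.0, 53.0, 43.0 and 53.7 in samples 1 to 4. Scaled to the calibrants, of which sample 2 held the most, it was 53.1, 40.3, 40.6 and 48.0. Sample 3 was thus the lowest as deposited, and samples 2 and 3 were both low after this scaling.

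By the medians, spread between samples was larger than spread between acquisitions. For the 12 masses listed in all 8 streptomycin acquisitions, the coefficient of variation over samples had a median of 19.5%, from 8.82% for cytidine to 32.5% for the weaker deoxyinosine row. The 2 acquisitions of a sample differed by a median of 2.84% of their mean. In sample 1 they were equal in some rows, such as 7.2107 and 7.2107 for uridine or pseudouridine, which lowers that median. In the weaker deoxyinosine row they differed by a median of 23.8% and by up to 44.0%. The medians of 19.5% and 2.84% were near those of all masses listed in all 8 streptomycin acquisitions, at 19.3% and 2.53%.

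Matched formulas that differ by 1 named group formed 6 pairs, which were set side by side in the streptomycin samples, using the stronger row of each. Intensities of different compounds depend on how well each ionises and are not amounts, so a ratio does not say which compound was more abundant. Inosine over deoxyinosine, which lacks a hydroxyl of the sugar, was 1.86, 1.64, 2.50 and 2.88. In the weaker rows of both it was 1.90, 3.95, 2.69 and 2.03, with sample 2 the highest in place of the lowest. Cytidine over deoxycytidine was 4.47, 13.5, 6.88 and 6.85, with the high value in the sample where an acquisition of deoxycytidine was at 0. In the other samples cytidine over deoxycytidine ran from 4.47 to 6.88. Cytidine over uridine or pseudouridine, which differ by an amino group against a carbonyl, was 1.08, 1.05, 1.16 and 0.996, and adenosine or deoxyguanosine over inosine was 0.787, 0.564, 0.680 and 0.739. In the weaker rows adenosine or deoxyguanosine over inosine was 0.378, 0.297, 0.316 and 0.306. Size and sample order of a ratio thus depended on the rows taken. With 4 samples an exact sign-flip permutation test cannot go below p = 0.125, so the pairs are described and not tested.

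Other compounds of the same pathways were taken from a list of 35 related formulas, of which 3 had a mass within 3 ppm. Limma called all 3 higher after streptomycin, where 52.7% of all masses were. It called 1 of the 3, thiamine, when 0 was set to the lowest listed intensity of the mass, where 4.24% of all masses were. Of 9 modified nucleosides, 2 were matched: methylguanosine and dimethylguanosine, methylated bases of transfer and ribosomal RNA that are set free when that RNA is broken down. Methylguanosine, at 297.1074 Da, stood at 8.84, 6.60, 6.74 and 7.24 (mean 7.35 ± 1.02, SD, n = 4). Dimethylguanosine, at 311.1231 Da, stood at 8.29, 5.37, 7.41 and 6.75 (mean 6.96 ± 1.23, SD, n = 4). Both stood at 0 in all untreated samples, and sample 1 was the highest and sample 2 the lowest in each. Guanosine over methylguanosine was 1.16, 1.77, 1.19 and 1.48 in samples 1 to 4, and methylguanosine over dimethylguanosine 1.07, 1.23, 0.909 and 1.07. A carbon-13 row of methylguanosine, at 298.1107 Da, held 11.9 ± 0.419% of its intensity (SD, n = 4), where natural carbon-13 gives 11.9% for 11 carbons. Dimethylguanosine and thiamine had no carbon-13 row, although natural carbon-13 would put theirs at 0.903 and 2.13 in streptomycin samples. The formula of methylguanosine is also that of deoxyadenosine with formic acid added, and formic acid was in the solution used for positive mode.

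Thiamine, vitamin B1, was the only related compound listed in both groups. Its mass was taken as the thiamine cation less a proton, at 264.1046 Da. It stood at 8.64, 3.47, 5.69 and 4.34 in untreated samples 1 to 4 (mean 5.54 ± 2.26) and at 23.0, 10.8, 16.3 and 15.6 in streptomycin samples (mean 16.4 ± 5.03, SD, n = 4 each). Every streptomycin sample stood above every untreated sample, as for 43.2% of all masses. Fitted to the 633 masses listed in both groups alone, limma called 18.3% higher, thiamine among them. The value of untreated sample 2 is the mean of acquisitions at 6.95 and 0. The log2 change was 1.60 ± 0.33 (SE; limma adjusted p = 0.00253; exact two-sided permutation p = 0.0286), a ratio of means of 2.96. The change was smaller, 1.18 ± 0.40 (limma adjusted p = 0.0243), after scaling to the calibrants, and with the second acquisition alone the call was lost (2.78 ± 1.23, limma adjusted p = 0.0650). Thiamine was thus higher after streptomycin as deposited and on all 3 other scales tried, and it is the compound of these pathways with a measured untreated level.

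**Figure D4:**
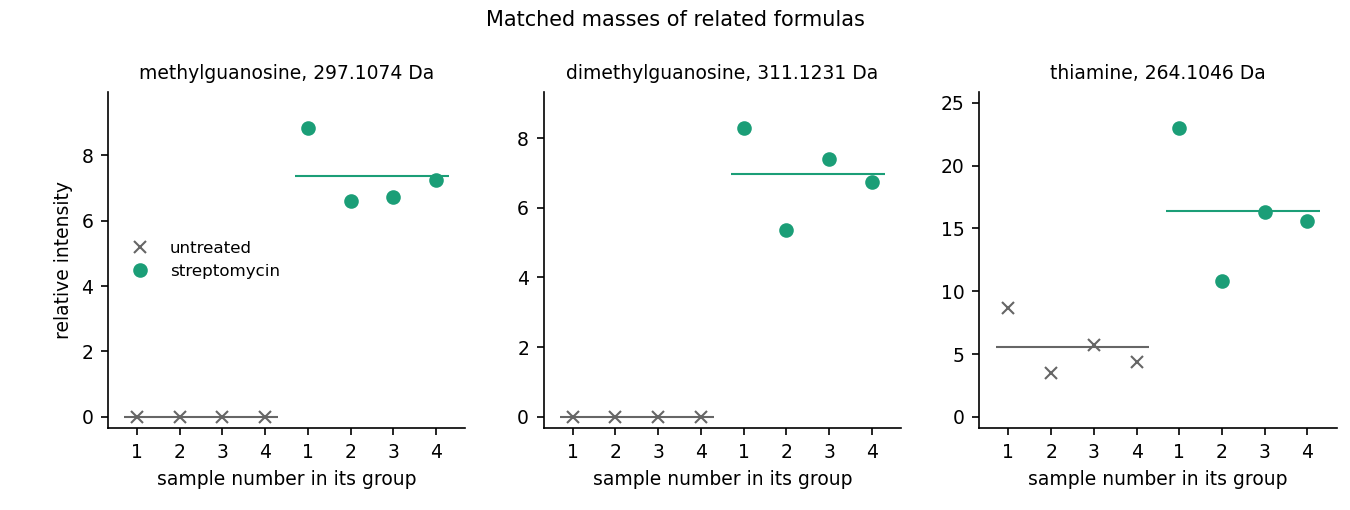
Relative intensity of methylguanosine, dimethylguanosine and thiamine by sample, with crosses for the 4 untreated and circles for the 4 streptomycin samples; lines are group means. Thiamine goes from a mean of 5.54 to 16.4, and the modified guanosines are at 0 in untreated samples and at means of 7.35 and 6.96 after streptomycin.

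Unmatched formulas were of 2 kinds. Guanine, xanthine and pyridoxine lie below 172.1099 Da, where the table holds 2 rows in all, so their lack of a match says little. Pantothenic acid, riboflavin, biotin, xanthosine, deoxyadenosine and deoxyuridine lie in the covered range, and none of these 6 had a mass within 3 ppm in either group. Of the related formulas 6 also lie below 172.1099 Da, among them all 4 purine end products and methylated bases, none of which was matched. None of 8 nucleotides was matched, and 1 of 14 vitamin forms and breakdown products was, thiamine. Methylinosine had a mass at -4.32 ppm, outside the tolerance, at 282.0952 Da and 19.6 ± 6.70 (SD, n = 4) in streptomycin samples only. A formula without a match was not listed at this level of detection, which does not show that the compound was absent.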

How the data were processed

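The authors deposited 1 table of relative intensities per neutral mass for 8 samples, with 2 acquisitions each. Per the labels' protocols, acetonitrile extracts were measured over m/z 150 to 1100 in both ion modes with a mass accuracy within 2 ppm. The reference of the intensities, the peak picking and the joining of ion modes are not given in the sources used here. Sample values were means of both acquisitions. For testing, 0 was set to 0.0738, the lowest sample value, and log2 values were fitted with limma (lmFit and eBayes, 4 against 4, no block, threshold 0.05 after Benjamini-Hochberg over 2429 masses). On simulated data for this comparison, over 539 masses, limma called 78% of 2-fold and 99% of 4-fold changes and made 7 false calls. These 539 masses were listed in every sample. The nucleoside masses were not among them, so these rates do not cover calls on masses at 0 in a group. Every matched mass is named. The formulas and lists were chosen with earlier results of these data known. Alternatives covered undetected values, filters, scaling, tests, acquisitions, left-out samples and matching. Software was R 4.3.3, limma 3.58.1, Python 3.11.15 and pyteomics 5.0.1.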

Additional observations from a re-analysis of the deposited data

Results flagged for a closer look

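In the streptomycin group of uridine or pseudouridine, at 244.0696 Da, sample 3 stood far below the others, at 5.58 against 7.21 to 7.52. The gap made up 0.840 of the group's range, above Dixon's 95% critical value of 0.829 for 4 samples. It was the only flag among 26 groups of 4 values examined, from which groups at 0 throughout were left out, and chance flags about 1 in 20.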

How the results depend on the processing

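The count of 13 nucleoside masses called higher stayed within 1.5 times in 24 of 26 alternatives. With undetected values set to 1 it was 10, where 36.6% of all masses were called higher. Every untreated value of these masses is 0, so the call rests on the value put in for 0. Scaling, the block, left-out samples and tolerance could hardly change it. The count was 0 with undetected values set to the lowest listed intensity of the mass, where 4.24% of all masses were called higher. It was 8 with the nearest row to each formula alone, where only 8 rows remain. With undetected values set to the lowest listed intensity, 1 of the 3 related masses was called higher. With masses listed in both groups alone it was also 1, thiamine, where 18.3% of 633 masses were. No nucleoside mass remains there. With the replicate block, which pairs same-numbered samples, 13 of 13 were called higher and 1278 of all 2429 masses, against 1281 without it. The log2 change of thiamine stayed at 1.60, and its SE was 0.130 with the block against 0.334 without. Same-numbered samples correlated at 0.0426, 0.0301, 0.107 and 0.124 over 539 masses, all positive. Pairings of different numbers had both signs and ran from -0.191 to 0.124. The labels do not say whether the numbers pair samples, and this was not tested. The main fit used no block. The methods' t-test called 13 of 13 before and after adjustment, and after adjustment it called 51.3% of all masses higher. No nucleoside mass was called lower under any of the 26 alternatives. With untreated values at 0 a lower call was nearly impossible in advance, so this count says little. Leaving out each sample in turn kept 13 called higher. Mean levels in streptomycin samples changed by a factor of 0.867 to 0.895 on the calibrant scale, 0.939 to 0.949 on summed intensity and 1.15 to 1.16 on the median ratio. Each scale was centred on the mean of all samples, so these factors are not the whole shift between groups. The 8 matched formulas did not depend on a tolerance of 1 or 2 ppm, and deoxyadenosine joined at 5 ppm.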
